A study of Homo sapiens with 6 samples.

Results

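The 41 genes described here encode the machinery that copies DNA in S phase, from origin licensing and the replicative helicase to the polymerases, nucleotide supply and histone deposition, together with E2F1 and the E-type cyclins that control entry into S phase. They were chosen by gene symbol, and a probe set counted for a gene only where the platform annotation gives it exactly 1 symbol. The annotation gives 19775 such genes, and 10791 of them, all 41 included, had a signal over the floor of detection on 1 array or more. The 41 genes are read by 76 probe sets, and 67 of those exceeded the floor on some array and 64 on all 6. Expression was measured in DU145, an androgen-independent human prostate cancer cell line that carries c-MET, the receptor tyrosine kinase for hepatocyte growth factor (HGF). After attachment in serum-containing medium, cells were kept until the next day in medium with dextran-charcoal-stripped serum, were then given HGF at 25 ng/ml or vehicle, and were harvested 2, 8 or 24 hours later. Each of these 6 conditions is represented by 1 Affymetrix U133plus2.0 array, so the vehicle arrays of 2, 8 and 24 hours are the controls and no condition has a replicate. All groups share the cell line and the stripped serum, and the whole culture was lysed, so that fewer cells in S phase and less RNA per cell cannot be told apart.

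Before S phase, the origin recognition complex with CDC6 and CDT1 loads the MCM2-7 helicase onto origins, which is called licensing. Cyclin E with CDK2 and the kinase CDC7 then turn the loaded helicase into an active one by adding CDC45 and the GINS complex, and polymerases, the sliding clamp PCNA and the single-strand binding protein RPA follow at the fork. Many of these genes are transcribed late in G1 by E2F factors once the retinoblastoma protein releases them, and the CDK inhibitor p21, encoded by CDKN1A, acts against that release. In prostate epithelium and in carcinoma lines such as DU145, HGF is known as a scatter factor that drives motility. In DU145 the study reported that HGF inhibited cell growth over the following days.

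Letters of the kind that E2F factors bind were looked up in the promoters, taken from RefSeq on GRCh38.p14 as 250 bases before to 50 after each annotated start. The words TTTCCCGC, TTTCGCGC, TTTGCCGC and TTTGGCGC were searched on both strands. Of the 41 genes, 37 had a promoter in the table and 19 of these held a match (51.4%), against 1090 of 27305 genes in all (3.99%) and 614 of 8913 genes above the floor (6.89%). Counted as promoter windows, 19 of 46 windows of the 41 genes (41.3%) and 1164 of 35116 windows in the table (3.31%) held a match. CCNE2, MCM4, MCM5 and RPA2 were not in the table. The 26 matches in the 19 genes lay between -187 and 7 bases from the start, with a median of -37, and 20 lay between -100 and 50. Some matches on opposite strands overlap and so share part of their letters. Being an E2F target was among the grounds for listing the 41 genes. Their higher share of matches can thus come from the choice of list and is no finding of these data. A match is a run of letters and does not show that a factor binds there. To show such matches beside genes whose ratios at 8 hours differed in direction, windows of 5 genes are printed. They hold the 160 bases before the start on the gene's own strand, with matched letters in capitals. For MCM7 other annotated starts held no match, and only the start with matches is printed.
CDT1, the licensing factor with its window at chr16:88803629-88803788 on the plus strand, and MCM7, a helicase subunit at chr7:100101398-100101557 on the minus strand, had positive ratios of HGF over vehicle at 8 hours (0.63 and 0.80 on the log2 scale).
CDT1: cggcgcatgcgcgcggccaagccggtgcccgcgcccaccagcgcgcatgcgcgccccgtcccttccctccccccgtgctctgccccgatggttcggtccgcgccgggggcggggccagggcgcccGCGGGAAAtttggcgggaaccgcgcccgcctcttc
MCM7: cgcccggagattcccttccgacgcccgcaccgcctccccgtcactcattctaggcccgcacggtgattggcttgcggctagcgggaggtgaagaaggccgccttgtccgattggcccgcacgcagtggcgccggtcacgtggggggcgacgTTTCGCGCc
RFC3, a subunit of the clamp loader at chr13:33817989-33818148 on the plus strand, and POLA1, the catalytic subunit of the primase-polymerase at chrX:24693758-24693917 on the plus strand, had negative ratios at 8 hours (-0.59 and -0.997).
RFC3: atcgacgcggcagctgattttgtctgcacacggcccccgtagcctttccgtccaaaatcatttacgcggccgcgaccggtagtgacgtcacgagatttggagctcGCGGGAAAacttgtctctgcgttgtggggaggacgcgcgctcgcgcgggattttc
POLA1: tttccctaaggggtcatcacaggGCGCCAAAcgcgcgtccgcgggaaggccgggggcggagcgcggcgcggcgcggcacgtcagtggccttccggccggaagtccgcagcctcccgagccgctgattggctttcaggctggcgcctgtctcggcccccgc
MCM6, a helicase subunit at chr2:135876444-135876603 on the minus strand, had a ratio of -0.12 or lower at 8 hours. It held the most matches, 4 in overlapping pairs.
MCM6: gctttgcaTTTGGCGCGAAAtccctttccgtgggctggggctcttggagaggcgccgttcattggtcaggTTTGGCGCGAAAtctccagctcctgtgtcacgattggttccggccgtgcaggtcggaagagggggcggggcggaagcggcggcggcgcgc

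The deposited values are intensities from MAS5 on a linear scale. Arrays were brought to a common mean of 150, lower signals were set to a floor of 30, and the log2 ratio of a gene is the mean over its probe sets. A probe set at the floor in all arrays enters that mean as 0, which makes the ratio smaller. Such probe sets were found in MCM4, GINS2, RFC3, POLA2, RPA1, TYMS, CCNE1 and CHAF1A. Signals quoted below are scaled values, and signals of different probe sets are not compared. A gene was called higher or lower by the study's rule of size, which is a threshold and not a test. It asks for at least 1 probe set at 2-fold or more. The mean ratio must also be over 1.4-fold (0.50 on the log2 scale) in the same direction. The study used the rule for HGF over vehicle at 24 hours, and here it was used for every comparison. Between 33.1% and 36.7% of probe sets were above the floor in an array. Control probe sets at the 3' and 5' ends of ACTB and GAPDH read RNA integrity and labelling. For ACTB the 3' signal was 1.13 to 1.17 times the 5' signal at 2 hours and 1.31 to 1.36 times at 8 hours. At 24 hours it was 1.63 to 1.71 times the 5' signal. The same ratio for GAPDH was 0.92 to 0.95 at 2 hours, 0.94 to 0.99 at 8 hours and 0.96 to 1.01 at 24 hours. The median of the poly-A spikes, transcripts added before labelling, was 63.9 in the vehicle array of 8 hours, 131.4 in the HGF array of 8 hours and 127 to 263 in the other four. The part of these differences in the ratios at 8 hours was not tested. The epithelial markers KRT8, KRT18, KRT19, EPCAM and CDH1 were above the floor, as were 1 of the androgen-responsive markers (KLK3, 39.5 to 110.1) and 1 fibroblast marker (COL1A1, 50.5 to 97.3). KLK2 and the leukocyte, endothelial and other fibroblast markers measured here were at the floor in all arrays.

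With HGF the 41 genes did not lie on 1 side of 0, and at 8 hours subunits of the same complex differed in direction. The cyclin genes CCNE1 and CCNE2 had opposite calls at that time. At 2 hours 0 of the 41 genes were called higher and 0 lower, where 0.769% and 0.102% of all genes above the floor were. At 8 hours 1 gene, CCNE1, was called higher, beside 4.93% of all genes, and 2 genes, RFC3 and CCNE2, were called lower, beside 14.6%. At 24 hours CCNE1 was again called higher, beside 1.91%, and 0 genes were called lower, beside 1.02%. The 2 lower genes at 8 hours are thus a smaller share than the background, and the 1 higher gene at 8 and at 24 hours is a share near it. Quantile normalization moved the calls of all genes at 8 hours from 532 higher and 1580 lower to 1087 and 1004, and those of the 41 genes to 3 higher (CDT1, RFC2 and CCNE1) and 1 lower (CCNE2).

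With HGF the median log2 ratio over vehicle reached -0.06, 0.09 and 0.06 at 2, 8 and 24 hours, beside -0.02, -0.02 and 0.01 for all genes above the floor. Positive ratios were found for 14, 25 and 26 of the 41 genes in turn, beside 4141, 4890 and 5520 of the 10791 genes above the floor. After quantile normalization 14, 26 and 18 of the 41 were positive, with medians of -0.04, 0.24 and -0.04. The direction at 24 hours thus turned. The spread of the ratios was widest at 8 hours, where the distance between the quartiles was 0.84, beside 0.70 for all genes. That distance was 0.15 beside 0.20 at 2 hours and 0.32 beside 0.29 at 24 hours. With the brightest probe set (0.86 beside 1.02) or without the floor (0.82 beside 1.16), the order at 8 hours turned. It also turned with probe sets above the floor only (0.84 beside 0.95). For 24 hours it turned with the brightest probe set (0.32 beside 0.43) and without the floor (0.40 beside 0.56). It did so too against the mean over the vehicle arrays (0.27 beside 0.28). In the other alternatives the 41 genes had the wider spread at both times. At 8 hours 9 genes had a mean log2 ratio of 0.50 or more and 8 genes one of -0.50 or less. The share of all genes past these limits was not counted at any time. The SD of the ratios at 8 hours was 0.58 over all genes above the floor and 0.53 over the 41. The 9 were RFC2, MCM7, LIG1, CDT1, GINS1, POLD1, TK1, CCNE1 and MCM5. The 8 were CCNE2, POLA1, PRIM1, MCM10, POLE2, ORC6, RFC4 and RFC3. At 24 hours 4 genes were that far from 0, CCNE2 and CCNE1 above it and TK1 and GINS1 below it. At 2 hours CDT1 was (-0.55), and CHAF1B lay at the limit (-0.495).

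**Figure D1:**
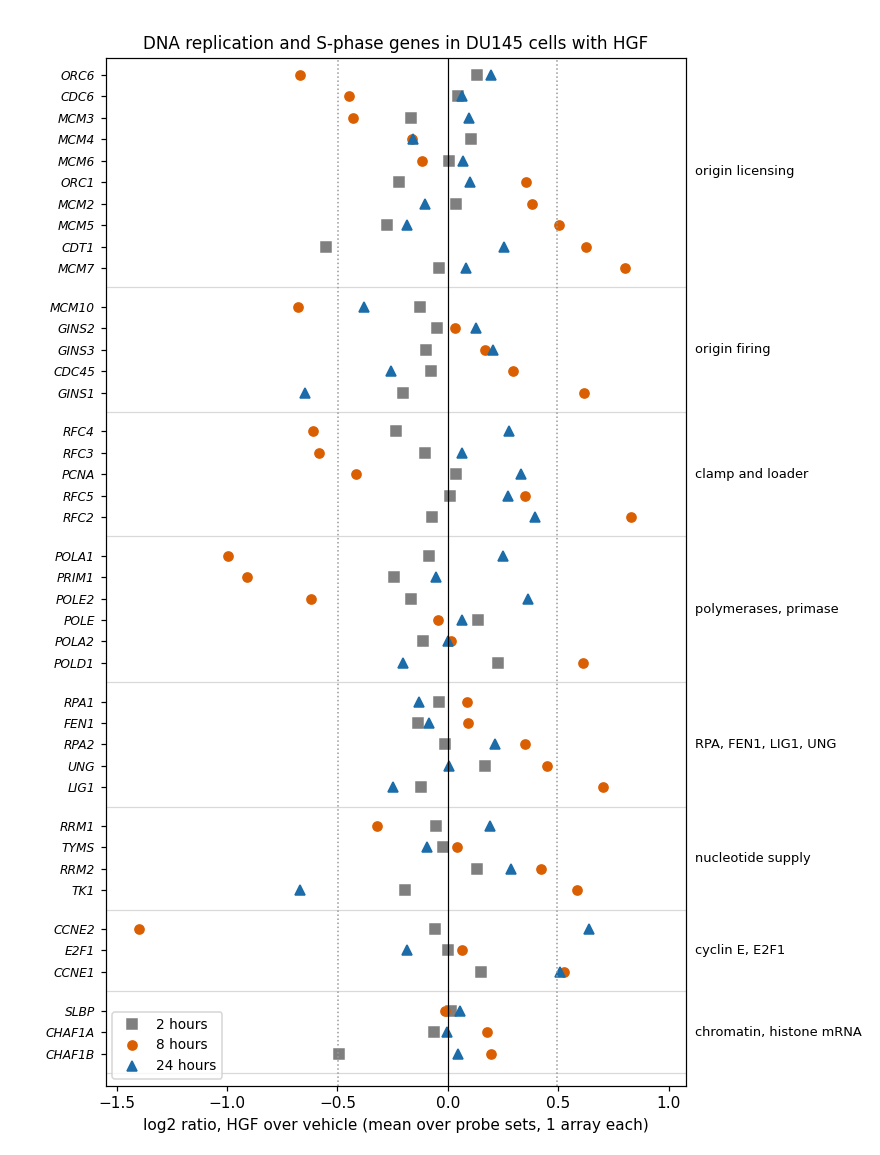
Log2 ratio of HGF over vehicle (x axis) of the 41 genes (y axis, grouped by role and ordered by the ratio at 8 hours) at 2 hours (grey squares), 8 hours (orange circles) and 24 hours (blue triangles), each from 1 array per condition, with dotted lines at 1.4-fold. The circles spread from -1.40 for CCNE2, a bound, to 0.83 for RFC2, and 25 of them are positive (26 after quantile normalization), while 26 triangles are (18 after quantile normalization).

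Of the genes that control entry into S phase, CCNE1, which encodes cyclin E1, the partner of CDK2 in the firing of origins, was called higher with HGF at 8 and 24 hours. Its probe set above the floor read 104, 152 and 125 with vehicle and 128, 314 and 252 with HGF at 2, 8 and 24 hours. The HGF arrays of 8 and 24 hours lay above all vehicle arrays, and that of 2 hours within their range. The probe set was 1.23-fold higher at 2 hours, 2.07-fold at 8 hours and 2.02-fold at 24 hours. A second probe set stayed at the floor in all arrays, which brings the mean log2 ratios to 0.15, 0.52 and 0.51. The study listed CCNE1 among its genes higher with HGF, at larger log2 ratios of 1.05 at 8 hours and 1.01 at 24 hours. Those are also the log2 ratios here of the probe set above the floor alone. The probe set lay just over the 2-fold limit, and at 24 hours the call was lost after quantile normalization, and without the floor it was lost at both times. CCNE2, which encodes the second E-type cyclin, was called lower at 8 hours. Its brighter probe set read 145, 209 and 111 with vehicle and 156, 96.9 and 183 with HGF. The vehicle array of 8 hours was the highest of the 6 and the HGF array of 8 hours the lowest. Its other probe set read 62.4, 96.7 and 31.9 with vehicle and 53.2, 24.7 and 46.8 with HGF, so that the HGF array of 8 hours was under the floor there. The ratios at 8 hours were 2.16-fold lower and at least 3.22-fold lower, with a mean log2 ratio of -1.40 or lower, and the mean at 24 hours was 0.64. Without HGF, CCNE2 differed between vehicle arrays by 0.58 for 8 over 2 hours and by -1.25 for 24 over 8 hours. E2F1, the transcription factor that acts on many of the other genes, had mean ratios of 0.00, 0.06 and -0.19, with its probe sets on opposite sides of 0 at 8 hours (0.33 and -0.20).

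**Figure D2:**
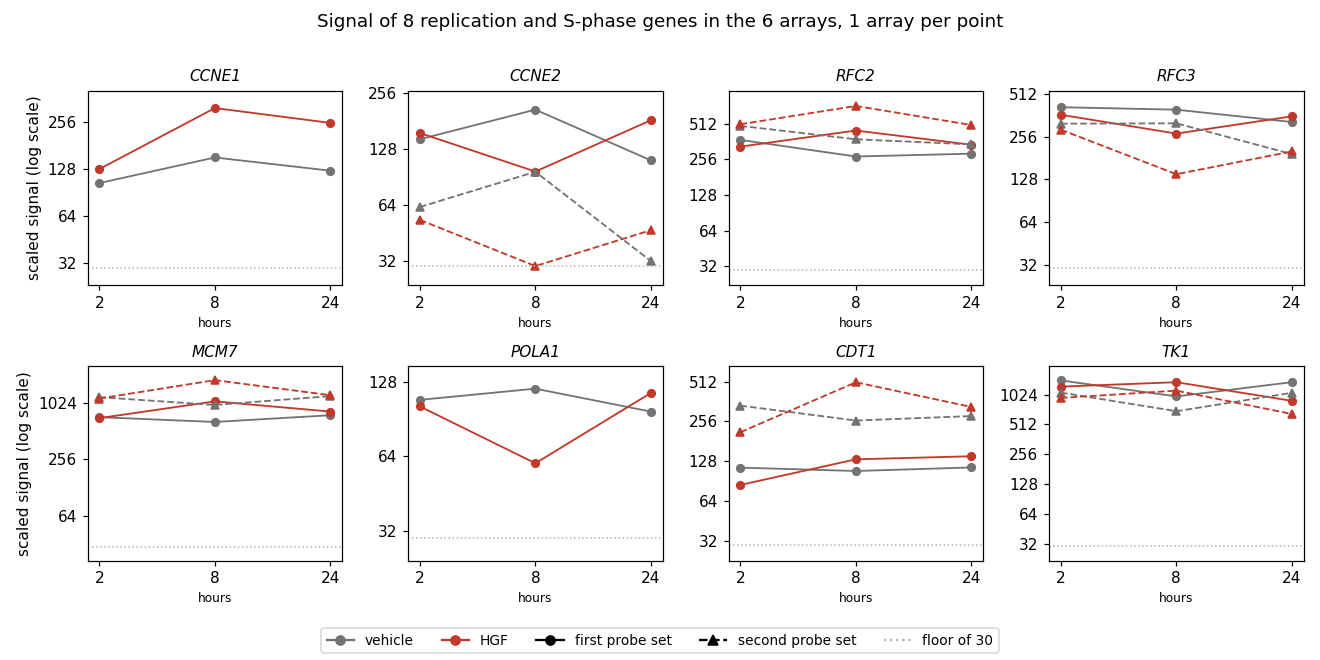
Scaled signal (y axis, log scale) of 8 genes at 2, 8 and 24 hours (x axis) in vehicle arrays (grey) and HGF arrays (red), with 1 array per point, solid and dashed lines for the probe sets of a gene that were above the floor, and a dotted line at the floor of 30. CCNE1 with HGF stood at 314 and 252 at 8 and 24 hours against 152 and 125 with vehicle, whereas the red lines of CCNE2, RFC3 and POLA1 dip at 8 hours.

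The 10 licensing genes were divided at 8 hours, 5 with positive and 5 with negative ratios, and 0 were called. MCM7, a subunit of the helicase ring, had the highest ratio of them, with mean log2 ratios of -0.04, 0.80 and 0.08 at 2, 8 and 24 hours. Its probe sets read 717, 637 and 752 with vehicle against 700.0, 1056 and 822 with HGF, and 1170.1, 967 and 1202 against 1132, 1776 and 1228. In both, the HGF array of 8 hours was the highest of the 6 and the vehicle array of 8 hours the lowest. CDT1, which brings the helicase to origins, had ratios of -0.55, 0.63 and 0.25. Its probe sets read 114, 108 and 115 with vehicle against 84.6, 132 and 139 with HGF, and 337, 259.7 and 281 against 212, 506 and 329, so that the HGF array of 2 hours was the lowest of the 6 in both. MCM5, another ring subunit, had a ratio of 0.50 at 8 hours, MCM2 of 0.38 and ORC1, a subunit of the origin recognition complex, of 0.35. Below 0 at 8 hours were ORC6, a further subunit of that complex (-0.67), CDC6, the loading ATPase (-0.45), MCM3 (-0.43), MCM4 (-0.16) and MCM6 (-0.12 or lower). ORC6 read 388, 385 and 354 with vehicle and 425, 242 and 406 with HGF, lowest in the HGF array of 8 hours. The 6 subunits of the ring, which work as a unit, thus had ratios at 8 hours between -0.43 and 0.80. At 24 hours the ratios of the 10 genes lay between -0.18 and 0.25, with a median of 0.07 (-0.04 after quantile normalization).

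Among the 5 genes of origin firing, GINS1, a subunit of the GINS complex, had the widest swing. It read 363, 209 and 279 with vehicle and 315, 319.9 and 178 with HGF, which gives log2 ratios of -0.20, 0.62 and -0.65. The HGF array of 24 hours was the lowest of the 6, and the vehicle array of 8 hours was the next lowest. MCM10, a scaffold at the starting fork, had negative ratios at all 3 times, -0.13, -0.68 and -0.38. Its brightest probe set read 297, 283 and 239.6 with vehicle and 279, 169 and 180.2 with HGF, so that the HGF arrays of 8 and 24 hours lay below all vehicle arrays. CDC45, the helicase cofactor, had ratios of -0.08, 0.29 and -0.26. GINS2 had ratios of -0.05, 0.03 and 0.13, but only 1 of its 3 probe sets was above the floor, and the others draw its mean to 0. GINS3 had ratios of -0.10, 0.17 and 0.20, although the probe sets of GINS3 lay 0.99 apart at 24 hours. At 2 hours all 5 ratios were negative, with a median of -0.10 and none past 1.4-fold. The median at 24 hours was -0.26 (-0.37 after quantile normalization).

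PCNA, the sliding clamp, and the RFC subunits that load it were the group with positive ratios in all 5 genes at 24 hours, with a median of 0.28 (0.16 after quantile normalization, also 5 of 5). The values were 0.40 for RFC2, 0.33 for PCNA, 0.28 for RFC4, 0.27 for RFC5 and 0.07 for RFC3, and none passed the rule of size. In the vehicle arrays alone, the 5 genes had a median of -0.41 for 24 over 2 hours, all negative, and 4 of their 5 HGF values at 24 hours lay within the range of the vehicle arrays. At 8 hours the same genes were divided. RFC2 had the highest ratio of the 41, 0.83, with probe sets that read 373, 270.3 and 286 with vehicle against 327, 448 and 339.7 with HGF, and 490.2, 378 and 342 against 505, 721 and 498. RFC3 was called lower with a ratio of -0.59. Its 2 probe sets above the floor read 414, 397 and 325 with vehicle against 366, 269 and 357 with HGF, and 317, 318 and 193 against 287, 139 and 201. At 8 hours 1 of them was 2.29-fold lower and the other 1.48-fold, a mean log2 ratio of -0.88. Another probe set stayed at the floor in all arrays, which brings the mean to -0.59. RFC3 held its call in 3 of 9 alternatives. RFC4 read 1126, 901 and 761 with vehicle and 958, 589 and 923 with HGF, a ratio of -0.61 at 8 hours, and PCNA read 1707, 1816 and 1503 and 1753, 1361 and 1891, a ratio of -0.42. For both, the HGF array of 8 hours was the lowest of the 6. RFC5 had a ratio of 0.35 at 8 hours.

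Among the polymerase and primase genes, 4 of 6 had negative ratios at 8 hours, with a median of -0.33 (-0.25 and 3 of 6 after quantile normalization). POLA1, the catalytic subunit of polymerase alpha that starts each strand, read 108, 119.8 and 96.9 with vehicle and 102, 60.02 and 115 with HGF. Its ratio of -0.997 at 8 hours fell just short of 2-fold, so that the gene was not called. PRIM1, the primase subunit that makes the RNA primer, read 522, 539 and 404 with vehicle and 441, 287 and 389.9 with HGF, a ratio of -0.91. POLE2, the accessory subunit of the leading-strand polymerase, read 949, 791 and 699 with vehicle and 846, 515 and 898 with HGF, a ratio of -0.62. In POLA1, PRIM1 and POLE2 the HGF array of 8 hours was the lowest of the 6, and at 24 hours the ratios were 0.25, -0.05 and 0.36. POLD1, the catalytic subunit of polymerase delta, had a ratio of 0.61 at 8 hours, with 171, 169.6 and 200.3 in vehicle arrays and 199.7, 259 and 174 with HGF. POLE, the catalytic subunit of the leading-strand enzyme, had ratios of 0.14, -0.04 and 0.06, and POLA2, the second subunit of polymerase alpha, of -0.11, 0.01 and 0.00, where 1 of its probe sets was at or near the floor.

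The genes for RPA, Okazaki fragment processing and uracil removal had positive ratios at 8 hours in 5 of 5, with a median of 0.35 (0.40 after quantile normalization, also 5 of 5), and 0 were called. LIG1, the ligase that seals Okazaki fragments, read 114, 94.3 and 123 with vehicle and 105, 154 and 104 with HGF, a ratio of 0.70 at 8 hours. UNG, the uracil glycosylase, had a ratio of 0.45, RPA2 of 0.35, and RPA1 and FEN1, the flap nuclease, of 0.09 each. In the vehicle arrays all 5 genes read lower at 8 than at 2 hours, by -0.06 to -0.39. Of the 5, the HGF array of 8 hours lay above all vehicle arrays for LIG1, UNG and RPA2 and within their range for RPA1 and FEN1. At 24 hours the ratios lay between -0.25 for LIG1 and 0.21 for RPA2.

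Of the genes of nucleotide supply, RRM2, the small subunit of ribonucleotide reductase that limits dNTP production in S phase, was the only 1 of the 41 whose gene-level value lay above all 3 vehicle arrays in each of the 3 HGF arrays, beside 4.77% of all genes. None of the 41 lay below in all 3, beside 4.27%. Its probe sets read 1719.9, 1679 and 1419 with vehicle against 2141, 2063 and 1918 with HGF, and 2593, 1879 and 2946 against 2503, 2736 and 3236. The groups did not overlap in the former and did in the latter. Its log2 ratios were 0.13, 0.42 and 0.29, none past 1.4-fold. TK1, the thymidine kinase of the salvage pathway, had ratios of -0.19, 0.58 and -0.67. Its probe sets read 1423, 981 and 1367 with vehicle against 1232, 1365 and 885 with HGF, and 1073, 695 and 1067 against 947, 1121 and 652, so that the vehicle array was low at 8 hours and the HGF array at 24 hours. RRM1, the large reductase subunit, had ratios of -0.05, -0.32 and 0.19, and TYMS, thymidylate synthase, of -0.02, 0.04 and -0.09. TYMS had the smallest ratio of the 4 at each time, with 4151, 4088 and 4697 in vehicle arrays and 4021, 4619.8 and 4449 with HGF on its brighter probe set.

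Of the 3 chromatin genes 0 were called with HGF at any time. CHAF1B, a subunit of the assembly factor that places histones behind the fork, read 204, 179.7 and 155 with vehicle and 145, 206 and 159.7 with HGF, ratios of -0.49, 0.20 and 0.05. CHAF1A, its large subunit, had ratios of -0.06, 0.18 and -0.01. SLBP, which binds the stem-loop of histone mRNA, had ratios of 0.01, -0.01 and 0.06 and read between 1446 and 1741 in all arrays.

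The vehicle arrays give the size of differences without HGF, although they also differ in time in culture. Set against their range, the HGF array of 2 hours lay above it in 10 of the 41 genes (18.5% of all genes) and below it in 3 (18.2%). That of 8 hours lay above it in 15 (35.3%) and below it in 10 (34.5%), and that of 24 hours above it in 8 (21.1%) and below it in 10 (26.6%). At 8 hours the 15 were ORC1, CDT1, MCM2, MCM5, MCM7, RFC2, POLD1, RPA2, LIG1, UNG, RRM2, TK1, CCNE1, CHAF1A and CHAF1B. The 10 below were ORC6, MCM10, PCNA, RFC3, RFC4, POLA1, POLE2, PRIM1, RRM1 and CCNE2. At 24 hours those below were MCM2, MCM4, MCM10, CDC45, GINS1, PRIM1, RPA1, FEN1, TK1 and CHAF1A.

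Over time in vehicle, 33 of the 41 genes read lower at 8 than at 2 hours, beside 4849 of the 10791 genes above the floor. The median was -0.08 beside 0.00 for all genes. Of the 41, 0 were called in either direction (0.519% of all genes higher, 0.361% lower). GINS1 (-0.80) and TK1 (-0.58) were farthest below and CCNE2 (0.58) farthest above. From 8 to 24 hours 24 genes were lower, beside 6399 of the 10791, with a median of -0.06. CCNE2 was the 1 called lower, beside 5.5% of all genes, with 0 called higher, beside 0.454%. After quantile normalization the median was 0.09 and 16 genes were lower. From 2 to 24 hours 35 of the 41 genes were lower with vehicle, beside 6619 of the 10791. The median was -0.20 beside -0.07 for all genes. None of the 41 was called there (0.259% of all genes higher, 2.14% lower). After quantile normalization 26 of the 41 were lower, with a median of -0.12. These comparisons share arrays with each other and with those of HGF over vehicle. The calls of all genes moved with the scaling, from 49 higher and 594 lower to 218 and 222 after quantile normalization for 24 over 8 hours, from 28 and 231 to 74 and 80 for 24 over 2 hours, and from 56 and 39 to 34 and 53 for 8 over 2 hours.

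Over time with HGF, CDT1 (0.95) and CCNE1 (0.65) were called higher at 8 than at 2 hours, beside 3.7% of all genes, and RFC3 (-0.50) was called lower, beside 8.45%. From 8 to 24 hours 0 of the 41 genes were called, where 4.24% of all genes were higher and 2.21% lower. The largest ratios there were POLA1 (0.94), POLE2 (0.80), CCNE2 (0.78 or higher) and ORC6 (0.74), and on the other side GINS1 (-0.84) and TK1 (-0.70). From 2 to 24 hours MCM4 (-0.60) was called lower, beside 3.15%, and 0 were called higher, beside 1.5%. GINS1 (-0.82) and MCM10 (-0.62) were lower still without a call. The medians of the 41 genes were -0.06 for 8 over 2 hours, -0.09 for 24 over 8 hours and -0.07 for 24 over 2 hours. After quantile normalization the calls of all genes went from 399 higher and 912 lower to 690 and 521 for 8 over 2 hours, from 458 and 239 to 334 and 261 for 24 over 8 hours, and from 162 and 340 to 222 and 207 for 24 over 2 hours.

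The effect of HGF shared by the 3 times was tested with limma over 10002 genes, with time as a block and arrays of different times in the place of replicates. It called 0 genes, 0% of those tested, at an adjusted p under 0.05, and 403 genes (4.03%) had an unadjusted p under 0.05, among them 1 of the 41, CCNE1. Its shared log2 ratio was 0.39 (SE 0.15), in the same direction at all 3 times. MCM10 had a shared ratio of -0.39 (SE 0.16) and RRM2 of 0.28 (SE 0.14), and the adjusted p was 0.912 for all 3. The shared effect of time, tested with limma's moderated F and the agent as a covariate, also called 0 genes (0%), with 181 genes and 0 of the 41 at an unadjusted p under 0.05. Without the arrays of 8 hours, 1857 genes (18.6%) and 7 of the 41 (17.1%) had an unadjusted p under 0.05 for time, with a lowest adjusted p of 0.228. The 7 were CDC45, CDC6, E2F1, GINS1, GINS3, MCM10 and MCM4.

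Different probe sets of a gene give a second reading of each ratio from the same RNA. In the 21 genes with more than 1 probe set above the floor, the highest and the lowest ratio lay 0.16, 0.38 and 0.16 apart in the median at 2, 8 and 24 hours. Opposite signs were found in 10, 6 and 5 of the 21 genes. The largest gap at 8 hours, 0.78, was that of MCM4, whose 4 probe sets had ratios from -0.61 to 0.17. Ratios at 8 hours also varied with gene length over all genes above the floor, with medians of 0.21, 0.01, -0.14 and -0.23 in 4 equal bins of 10783 genes with a length in RefSeq, from the shortest to the longest (Spearman's rho -0.35 across genes, which are not independent). Over the 41 genes rho was -0.10, and their medians in the same bins were 0.08, 0.04, 0.18 and -0.59, the last from 3 genes.

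Other genes of the pathway, from lists of replication, E2F and mitosis genes, are given by their counts. Of 38 further replication genes above the floor, 0 were called higher and 11 lower at 8 hours, beside 4.93% and 14.6% of all genes, with a median of -0.38 (2 higher and 9 lower with a median of -0.30 after quantile normalization, the 2 being POLD4 and PRIM2, named after their values were seen), and 0 were called at 2 or 24 hours. The lowest were ATAD2, a chromatin ATPase (-1.48), ASF1A, a histone chaperone (-1.35), ORC3, an origin recognition subunit (-1.33), CDC7, the kinase that fires origins (-1.32), TOPBP1, which helps to assemble the helicase (-1.30), and RRM2B, the reductase subunit induced by p53 (-1.22). CDC7 read 261, 389 and 187 with vehicle and 215, 156 and 224 with HGF. At 24 hours the median of these 38 genes was 0.05 (-0.03 after quantile normalization). Of 22 genes of the E2F, RB and CDK2 axis, 1 was called higher and 3 lower at 8 hours, shares near the 4.93% and 14.6% of all genes (2 and 0 after quantile normalization, with CCND3, named after its value was seen, beside CDKN1A). CDKN1A, which encodes the CDK inhibitor p21, was the 1 called higher, at all 3 times, with log2 ratios of 2.14, 2.50 and 1.84 and signals of 184, 208 and 253 with vehicle and 812, 1178 and 907 with HGF. The 3 called lower were the pocket protein genes RBL1 (-0.60 or lower) and RBL2 (-0.60 or lower) and CDK6, a kinase of G1 (-0.52 or lower). CCND1, cyclin D1, had ratios of 0.33, 0.28 and 0.17, and CDK2, the partner of cyclin E, of 0.03, -0.08 and 0.00.

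Of 20 genes of mitosis, all above the floor, 0 were called higher and 8 lower at 8 hours, where 4.93% and 14.6% of all genes were. Their median was -0.53 (also 0 and 8, with a median of -0.48, after quantile normalization). Of the 41 replication genes 1 was called higher and 2 lower, with a median of 0.09. Of the 38 further replication genes 0 were called higher and 11 lower, with a median of -0.38. The contrast with mitosis thus depends on which replication genes are listed. The lists were chosen with earlier results of these data known. The 6 lowest mitosis genes were the spindle gene HMMR (-2.24), the motors CENPE (-1.88) and KIF11 (-1.56), the checkpoint kinase TTK (-1.32), CDK1, the kinase that starts mitosis (-1.11), and CENPF, a kinetochore protein (-1.02). CDK1 read 1597, 1709 and 1285 with vehicle and 1256, 706 and 1348 with HGF. At 2 hours 20 of 20 ratios of the mitosis genes were negative, with a median of -0.19. So were 27 of the 41 replication genes and 6018 of the 10791 genes above the floor. At 24 hours the medians were 0.06 in both lists, and after quantile normalization -0.02 for mitosis and -0.04 for the 41 genes.

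Ratios were also set beside the E2F-type letters in the promoters. At 8 hours the 19 genes with a match had a median ratio of 0.03, ranging from -0.997 to 0.80, and the 18 genes without a match a median of 0.19, ranging from -0.91 to 0.83. At 24 hours the medians were 0.07 and 0.05, and at 2 hours -0.05 and -0.07. The groups overlapped over nearly their whole range at each time. A match was also held by 14 of 31 of the other replication genes with a promoter in the table (45.2%), by 5 of 19 genes of the E2F, RB and CDK2 axis (26.3%) and by 2 of 17 mitosis genes (11.8%).

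**Figure D3:**
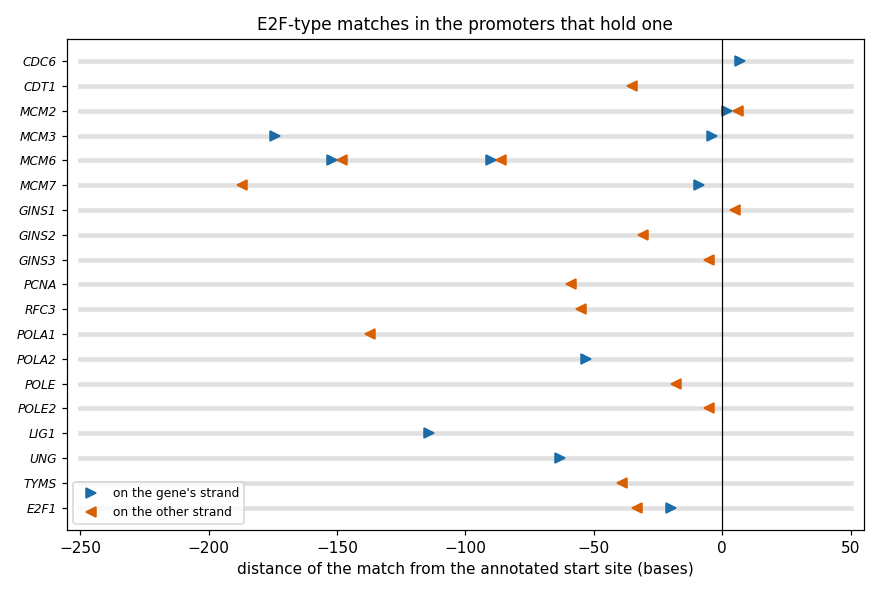
Position of each E2F-type match, in bases from the annotated start (x axis), in the 19 of 37 promoters that hold one (y axis), with blue triangles for matches on the gene's own strand and orange triangles for the other strand, and grey bars for the window searched. Of the 26 matches, 20 lie between -100 and 50.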

How the data were processed

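The 6 arrays of DU145 RNA, 1 per condition, were grouped into vehicle or HGF (25 ng/ml) and 2, 8 or 24 hours by their labels. The authors deposited 1 intensity per probe set and array on a linear scale (54675 probe sets, 0 to 13543.8), made with MAS5 by the submitters' processing notes (version not given in the sources used here). An average of 150 and a floor of 30, which the methods describe, are not present in the deposited intensities and were applied here. Quantile normalization, also named there, was an alternative. The platform annotation lists 42898 probe sets, 41091 of them with 1 symbol and no control, 1801 with several, and the other 11777 are unnamed here. Gene identifiers matched 41037 of the 41091 to RefSeq, which changed 0 symbols. Log2 ratios were averaged over the probe sets of a gene. The number of arrays limits the precision, and a single time point has no p-value.

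limma (lmFit and eBayes, Benjamini-Hochberg adjustment over all genes tested) was run on log2 values, with time as a block, for genes that exceeded the floor on 3 arrays or more. All 41 genes are named. From the other lists, genes that pass the rule of size at 8 or 24 hours are named, at most 6 a list, and CDKN1A, CCND1 and CDK2. Of 83 genes in these lists, 2 were not analysed here. The 41 genes and the lists were chosen with earlier results of these data known. Besides quantile normalization, the alternatives took ratios centred on 0, a floor of 60 or none, the brightest probe set of a gene, probe sets above the floor only, or no _s_at and _x_at probe sets, set HGF against the mean over the vehicle arrays, or raised the threshold to 3-fold. limma was also run with a variance trend, without the block or the filter, and without each time. Steps were tested on simulated data. Software was R 4.3.3, limma 3.58.1, Python 3.11.15, numpy 2.4.6, pandas 2.3.3 and matplotlib 3.10.9.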

Additional observations from a re-analysis of the deposited data

Results flagged for a closer look

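In 4 of the 41 genes the mean log2 ratio of HGF over vehicle was 1.4-fold or more in opposite directions at different times. Each condition had 1 array, and the difference between times was not tested. The share of all genes above the floor with such a reversal was not counted. CDT1 had -0.55 at 2 hours and 0.63 at 8 hours. GINS1 had 0.62 at 8 hours and -0.65 at 24 hours, and TK1 had 0.58 and -0.67. CCNE2 had -1.40 or lower at 8 hours and 0.64 at 24 hours. Between vehicle arrays, 8 over 2 hours, GINS1 differed by -0.80, TK1 by -0.58 and CCNE2 by 0.58, and CCNE2 differed by -1.25 for 24 over 8 hours.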

How the results depend on the processing

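Of the recomputed values, 113 stayed within the limits set and 20 did not. The limit for counts was 1.5 times, whichever genes were counted. For medians it was 0.0763, the SD of the median over the pairs of vehicle arrays. The 113 include medians under the 3-fold threshold, which that threshold cannot change, and many counts of 0 that stayed at 0. The tally therefore does not measure how firm the calls are. Without the floor, HGF over vehicle gave 2 higher (TYMS, CCNE1) and 2 lower genes (RFC3, POLA2) at 2 hours, 0 higher and 3 lower (GINS2, POLA2, CCNE2) at 8 hours, and 1 higher (GINS2, in place of CCNE1) and 1 lower (MCM4) at 24 hours. With a floor of 60, 0 genes were lower in vehicle for 24 over 8 hours. Quantile normalization gave 3 higher and 1 lower at 8 hours, 0 higher at 24 hours, 0 lower with HGF for 8 over 2 hours and 1 higher (CCNE1) for 24 over 2 hours, with medians of 0.24 at 8 hours and -0.039 at 24 hours. The brightest probe set gave 1 lower at 8 hours, as did leaving out _s_at and _x_at probe sets, which left 29 of the 41 genes. Against the mean over the 3 vehicle arrays, 0 were lower at 8 hours, and the medians were 0.054 at 2 hours and -0.046 at 24 hours. A 3-fold threshold left 0 higher and 1 lower at 8 hours and 0 higher at 24 hours. CCNE1 passed in 7 of 9 settings at 8 hours (0.39 to 1.05) and 6 of 9 at 24 hours (0.19 to 1.01), CCNE2 in 8 of 9 at 8 hours (-1.54 to -0.79) and RFC3 in 3 of 9 (-0.88 to -0.24). limma called 3 genes without the block and 3 with the brightest probe set, 0 of them among the 41. The cause of these shifts was not tested. The labels give no replicate number, so time was the block in limma. Signals near the floor give bounds, as for CCNE2 at 8 hours.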
